A study of Mus musculus with 4 samples.

Results

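The 10 genes described here are 7 genes of glucose uptake and glycolysis (Slc2a1, Gpi1, Aldoa, Pgk1, Eno1, Pkm and Ldha) and 3 genes annotated on the opposite strand of Gpi1, Slc2a1 and Aldoa (Gm26762, Gm12868 and Fam57b). They were chosen by name and looked up among the 50600 genes of the count files through GENCODE mouse symbols, and all 10 were found. The samples were 4 RNA-seq libraries of mouse T-helper 2 (Th2) cells, a class of CD4 T cells that acts in allergy and defence against worms. They were primary cells of strain C57BL/6NJ differentiated by a CD4 T cell protocol, with no treatment, genotype or sex given and age and stage given as unknown, and the headers of the count files give a time of 72 h. All 4 belong to 1 group, so values were compared between genes within a library and between libraries. The labels number the libraries as biological replicates 1 to 4 with separate biosamples but give all of them 1 donor identifier, and the number of animals is not given.

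T cells that have been activated take up glucose through GLUT1, the transporter encoded by Slc2a1, and break it down by glycolysis, with much of the pyruvate turned into lactate. Gpi1 encodes glucose-6-phosphate isomerase, Aldoa aldolase, which splits the sugar, Pgk1 and Pkm the kinases that make ATP, Eno1 enolase and Ldha a subunit of lactate dehydrogenase. The transcription factors Myc and HIF-1 are known to drive many of these genes in activated T cells. A gene on the opposite strand is read in the other direction, and a strand-specific library assigns each fragment to one of the strands.

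Each library held 1274431 to 1857433 fragments counted in genes. A count of 0 allows up to 3 counts, which is 1.62 to 2.35 CPM (counts per 1000000), and this limit covers counting error only, as do the intervals below. The 6 Th2 marker genes (Gata3, Il4, Il5, Il13, Cd4 and Cd3e) had a count in all 4 libraries, with 490, 299, 201 and 559 counts summed in replicates 1 to 4. Among them, Gata3, Il5 and Cd3e have an exon opposite another gene, and Il5 had only 6, 7, 1 and 17 counts. Of 21 markers of other cell types, 16 had no count, among them Cd8a and Cd8b1, and their sums were 753, 872, 675 and 548, most of it from Csf1r (716, 827, 661 and 542), which has an exon opposite another gene. The B cell gene Cd79a, with no opposite exon, was the other one with a count in all 4 libraries (35, 41, 9 and 2), and its part in the results was not tested. Fragments were assigned to a gene only on 1 strand (strand option 1 of the counting program), and the strand orientation of the library kit was not stated in the sources used here. Each value is therefore the amount counted on 1 annotated strand, and it was not read as an mRNA level. If the kit marks the other strand, the counts of a partner would be fragments of the strand of its glycolysis gene. They would overlap the partner's exons, which share 741, 105 and 25 bp with exons of Gpi1, Slc2a1 and Aldoa. A fragment can reach beyond the exon it overlaps, so these lengths do not limit the number of such counts. The ratios, shares and ranks of the pairs would then not hold as printed. Turning them round would not give the densities of the glycolysis genes. Values of every other gene named here, the Th2 markers included, would likewise be fragments of the strand opposite to that gene. Which orientation holds was not tested. Genes with no exon opposite another gene held 16.4% of all counts (95% Wilson interval 16.4 to 16.5) in replicate 1 and 20.1% (20.1 to 20.2) in replicate 4, but 8.54% (8.50 to 8.58) in replicate 2 and 9.14% (9.09 to 9.18) in replicate 3.

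The 3 partners share exon sequence with their glycolysis genes to very different extents, and the map of the pairs shows where. Coordinates are those of the count files (mm10). Gm26762 (ENSMUSG00000097660.1, a long intergenic noncoding RNA, chromosome 7, 34224755 to 34230236, + strand) shares 741 bp with Gpi1 (ENSMUSG00000036427.5, 34201330 to 34230336, - strand) in 4 stretches, 14.0% of the exon length of Gm26762 and 11.5% of that of Gpi1. Of these, 333 bp are coding in Gpi1, and Gm26762 ends 100 bp inside the annotated start of Gpi1. Gm12868 (ENSMUSG00000085505.1, an antisense RNA gene, chromosome 4, 119133749 to 119138801, - strand) shares 105 bp with Slc2a1 (ENSMUSG00000028645.11, 119108711 to 119137983, + strand), 1 whole coding exon, which is 25.2% of Gm12868 and 2.99% of Slc2a1. Fam57b (ENSMUSG00000058966.13, Tlcd3b in RefSeq, a protein-coding gene of the TLC domain family, chromosome 7, 126797668 to 126830219, + strand) shares 25 bp with Aldoa (ENSMUSG00000030695.14, 126795234 to 126809108, - strand). Those 25 bp are the whole first exon of Fam57b, 0.635% of its exon length and 0.665% of that of Aldoa, and the RefSeq starts of the gene lie 19217 to 26985 bp further along. The deposited table gives 1 count per gene, so where within a gene the fragments lie cannot be read from it.

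**Figure D1:**
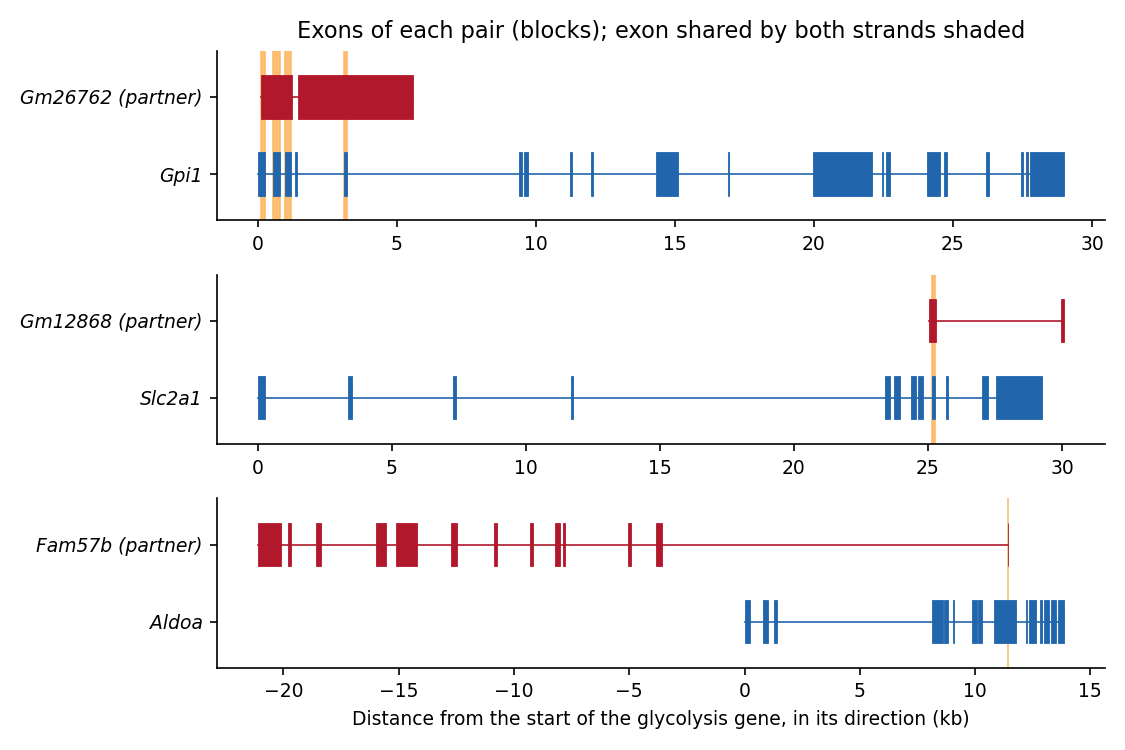
Exons (blocks) of each opposite-strand partner (red, upper row) and its glycolysis gene (blue, lower row), by distance in kb from the start of the glycolysis gene in its own direction; bands mark exon sequence on both strands. Gm26762 covers the first exons of Gpi1 (741 bp shared), Gm12868 crosses 1 coding exon of Slc2a1 (105 bp), and Fam57b meets Aldoa only in its 25 bp first exon.

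Sequences of shared stretches of the Aldoa and Gpi1 pairs are shown because a fragment there is given to 1 gene of the pair by its strand alone. Letters come from the GENCODE M21 transcripts on GRCm38 (mm10), 5′ to 3′ on the strand of the named gene, and capitals mark the bases that are also exon on the other strand. In the Aldoa pair the Fam57b line is the reverse complement of the capitals in the Aldoa line.
Fam57b, first exon, chr7:126797668-126797692, + strand: TGCCCTTGCCCGGAGCCACAATGCG
Aldoa, coding exon, chr7:126797644-126797755, - strand: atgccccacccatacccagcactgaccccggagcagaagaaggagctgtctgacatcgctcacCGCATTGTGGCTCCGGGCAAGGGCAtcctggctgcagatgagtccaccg
Of the 4 stretches of the Gpi1 pair, 1 is a complete coding exon of Gpi1.
Gpi1, coding exon, chr7:34227118-34227237, - strand: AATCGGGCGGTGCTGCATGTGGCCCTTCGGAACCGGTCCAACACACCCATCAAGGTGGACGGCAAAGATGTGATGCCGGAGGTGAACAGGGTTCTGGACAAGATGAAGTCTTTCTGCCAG

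In each pair the partner held nearly all of the counts, by the strand as counted. Gm26762 had 8975, 12296, 9524 and 6098 counts in replicates 1 to 4, whereas Gpi1 had 254, 86, 78 and 210. Per kb of exon this was 1699, 2327, 1802 and 1154 for Gm26762 and 39.4, 13.3, 12.1 and 32.5 for Gpi1. The groups of values did not overlap, and the lowest library of Gm26762 was far above the highest of Gpi1. On the scale log2((count + 1) per kb), Gm26762 exceeded Gpi1 by 5.43, 7.43, 7.20 and 5.14 in replicates 1 to 4, a mean difference of 6.30 ± 1.18 (SD, n = 4), or 78.8-fold, with 35.3-fold in the lowest library and 173-fold in the highest. The difference was positive in 4 of 4 libraries (exact two-sided sign-flip permutation test, p = 0.13), and 0.13 is the smallest p that this test allows with 4 libraries, so it cannot reach 0.05 for any pair.

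Gm12868 is a short gene of 417 bp of exon, and its density was the highest of the 10. It had 1019, 1547, 1000 and 737 counts in replicates 1 to 4, whereas Slc2a1 had 70, 19, 14 and 51 over 3506 bp. Per kb, Gm12868 had 2444, 3710, 2398 and 1767 counts and Slc2a1 had 19.97, 5.42, 3.99 and 14.5. The values did not overlap. The log2 difference in density was 8.07 ± 1.35 (SD, n = 4; 6.92, 9.35, 9.13 and 6.90 in replicates 1 to 4), a 269-fold mean with 119-fold and 651-fold at the ends, in 4 of 4 libraries (exact sign-flip permutation p = 0.13). Without division by length the log2 difference was 5.00, since the genes differ in length.

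Fam57b, although it meets Aldoa in only 25 bp, showed the same order. It had 9243, 12401, 8967 and 5586 counts in replicates 1 to 4, whereas Aldoa had 560, 214, 169 and 450. Per kb, Fam57b had 2349, 3151, 2279 and 1420 counts and Aldoa had 149, 56.9, 44.9 and 120. These values did not overlap, and this was the smallest gap of the 3 pairs. The log2 difference was 4.75 ± 1.14 (SD, n = 4; 3.98, 5.79, 5.66 and 3.57), a 26.8-fold mean with 11.8-fold and 55.1-fold at the ends, in 4 of 4 libraries (exact sign-flip permutation p = 0.13).

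This order was common among opposite-strand genes. Of 1354 noncoding genes sharing at least 100 bp of exon with a coding gene on the other strand, and with at least 20 counts over the pair, 78.4% had more counts per kb than the coding gene in all 4 libraries. Both noncoding partners, Gm26762 and Gm12868, were among them, and a count of 2 pairs cannot be set apart from this background. The median log2 difference of those 1354 pairs was 5.12, and Gm26762 over Gpi1 lay above 65.1% of them and Gm12868 over Slc2a1 above 86.9%. Among 1228 pairs of coding genes with any shared exon, 81.3% had 1 gene denser in all 4 libraries, and the median size of the difference, either way, was 2.90. Fam57b over Aldoa lay above 77.4% of those pairs. The shares of 78.4% and 81.3% ask for a denser gene within each library. The share of pairs whose values did not overlap between libraries is not given.

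The share of each pair's counts that lay on the partner was not constant between libraries. For the Gpi1 pair, Gm26762 held 97.2% (95% Wilson interval 96.9 to 97.6), 99.3% (99.1 to 99.4), 99.2% (99.0 to 99.3) and 96.7% (96.2 to 97.1) in replicates 1 to 4 (chi-square test of the 2 by 4 table, p = 1.24e-61). Gm12868 held 93.6% (92.0 to 94.9), 98.8% (98.1 to 99.2), 98.6% (97.7 to 99.2) and 93.5% (91.6 to 95.04) in the same order (chi-square p = 9.53e-19). In all 3 pairs the partner's share was larger in replicates 2 and 3. Fam57b held 94.3% (93.8 to 94.7), 98.3% (98.1 to 98.5), 98.2% (97.9 to 98.4) and 92.5% (91.9 to 93.2) (chi-square p = 3.01e-125). The chi-square test covers counting error only and compares these libraries, not conditions.

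Levels between genes were compared as TPM, a scale that divides counts by exon length and sums to 1000000 in each library. By the strand as counted, the 3 partners stood at the top, with Gm12868 at 2365 ± 322 TPM, Fam57b at 2102 ± 283 TPM and Gm26762 at 1607 ± 197 TPM (SD, n = 4 each). Among the 16612 genes with any count they lay above 99.7%, 99.6% and 99.4%. The 7 genes of glucose use followed, all of them above at least 75.2% of the genes with a count, in the order Ldha, Pkm, Aldoa, Pgk1, Eno1, Gpi1 and Slc2a1. On a scale made only from genes with no opposite exon, the mean TPM of the 10 genes was larger, 14387 for Gm26762 and 972 for Ldha, with the order unchanged.

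**Figure D2:**
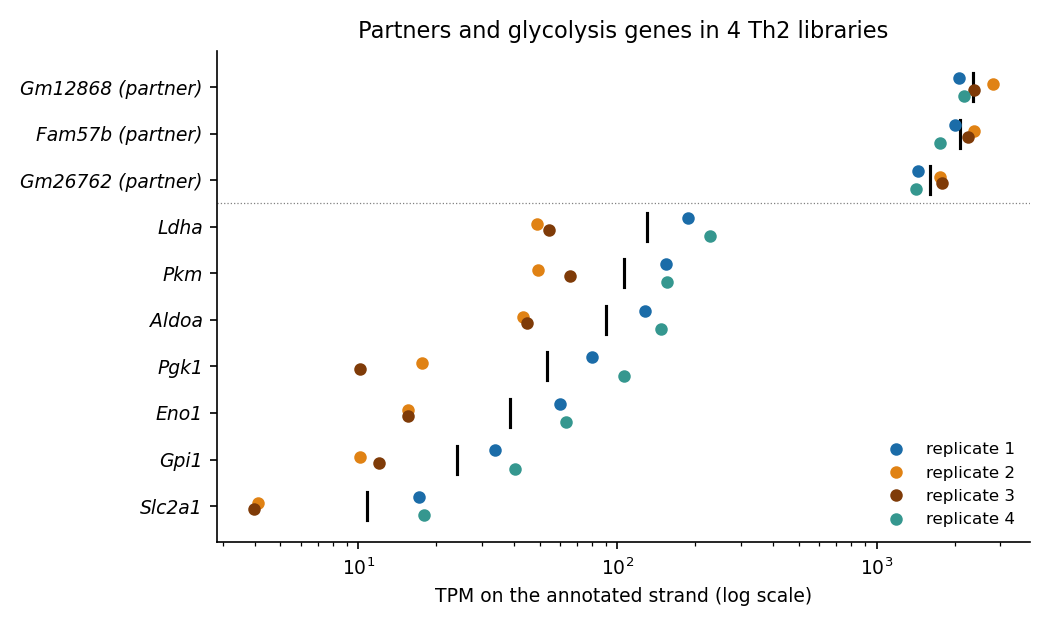
TPM on the annotated strand (log scale) of the 3 partners (above the dotted line) and the 7 glycolysis genes in each of 4 Th2 libraries; points are libraries, the bar is the mean. The partners lie between 1423 and 2812 TPM in every library, the 7 genes between 3.97 and 228 TPM, with replicates 1 and 4 on the right and replicates 2 and 3 on the left of each row of the 7.

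Ldha, whose product turns pyruvate into lactate (chromosome 7, 46841475 to 46855627), had 188, 49.0, 54.3 and 228 TPM in replicates 1 to 4, from 728, 214, 181 and 613 counts. Pkm, pyruvate kinase (chromosome 9, 59656368 to 59679375), had 154, 49.4, 65.3 and 156 TPM, from 900, 326, 329 and 631 counts. Ldha (130 ± 91.9 TPM) and Pkm (106 ± 56.6 TPM) did not keep an order, with Ldha higher in 2 of 4 libraries (exact sign-flip permutation p = 0.5). Pkm shares 767 bp of exon on its own strand with Gm49759 (42, 1, 13 and 49 counts), and fragments there cannot be given to 1 of these genes. Aldoa followed with 127, 43.1, 44.6 and 148 TPM and was below Pkm in 4 of 4 libraries (exact sign-flip permutation p = 0.13).

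Pgk1, phosphoglycerate kinase (chromosome X, 106187100 to 106203699), was the most variable of the 10, with 79.6, 17.6, 10.2 and 106 TPM from 209, 52, 23 and 193 counts. Eno1, enolase (chromosome 4, 150236721 to 150248879), had 60.0, 15.5, 15.5 and 63.3 TPM from 378, 110, 84 and 276 counts. Pgk1 (53.4 ± 47.0 TPM) exceeded Eno1 (38.6 ± 26.7 TPM) in 3 of 4 libraries, and these neighbours did not differ beyond their spread (exact sign-flip permutation p = 0.5). Gpi1 had 33.6, 10.1, 12.004 and 40.1 TPM (mean 24.0 ± 15.2). Slc2a1 was lowest with 17.1, 4.11, 3.97 and 17.9 TPM (mean 10.8 ± 7.78). The other 7 of the 9 neighbouring steps in the order of the 10 genes held in 4 of 4 libraries (exact sign-flip permutation p = 0.13 each). Ldha, Pgk1, Pkm and Eno1 have no exon opposite another gene. Processed copies of several of these genes exist in the mouse genome, the headers set no option for fragments that map to several places, and how many fragments this removed was not tested.

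The 7 glycolysis genes were higher in replicates 1 and 4 and lower in replicates 2 and 3, and the 3 partners ran the other way by a smaller amount. The median deviation of log2 CPM from each gene's own mean was 0.82, -0.92, -0.88 and 0.94 for the 7 genes in replicates 1 to 4, and -0.18, 0.27, 0.16 and -0.25 for the partners. For each of the 7 genes, both replicate 1 and replicate 4 lay above both replicate 2 and replicate 3. The share of all genes with this separation is not given, so it was not read as a trait of the 7. CPM was highest in replicate 4 for 6 of the 7, and in replicate 1 for Pkm. The lowest library was replicate 2 for 4 of them and replicate 3 for 3. Among genes averaging at least 10 counts, 58.7% of the 3827 with no opposite exon and 28.3% of the 3925 with one were highest in replicate 4. In the same order, 40.2% and 20.3% were lowest in replicate 2, and 42.9% and 23.0% in replicate 3. All 3 partners were highest in replicate 2, with Gm26762 at 5040, 6620, 6586 and 4785 CPM. The share highest there was 23.8% among the 3925 genes with an opposite exon.

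**Figure D3:**
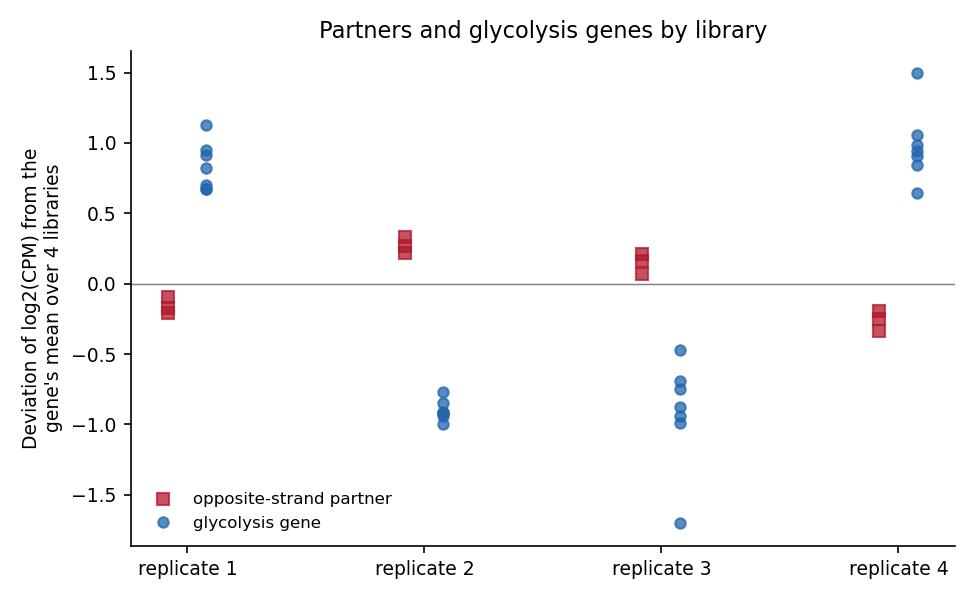
Deviation of log2 CPM of each gene from its mean over the 4 libraries, for the 3 opposite-strand partners (squares) and the 7 glycolysis genes (circles), by replicate. The 7 genes lie above 0 in replicates 1 and 4 and below 0 in replicates 2 and 3, and the partners lie on the other side of 0 in each library, closer to it.

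The same split was present over the whole table. Among genes averaging at least 10 counts, the 3827 with no opposite exon had median deviations of 0.56, -0.64, -0.63 and 0.94, while the 3925 with one had 0.01, 0.03, 0.04 and -0.02. The deviations of the 7 genes thus lay near those of genes without an opposite exon, although 3 of the 7 have one. The share of all counts in genes without an opposite exon, given above, moved with them, and its part in the result was not tested. Scaling by TMM, edgeR's normalization, shifted the libraries by 0.12, -0.24, -0.13 and 0.25 on the log2 scale and changed no sign among the deviations of the 10 genes, nor did median-of-ratios scaling, which differed from it by at most 0.07. With TMM the medians of genes with an opposite exon became -0.11, 0.27, 0.17 and -0.27, with the sign turned in replicate 1, and those of the 3 partners became -0.30, 0.51, 0.29 and -0.50.

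All 10 genes varied between the libraries beyond Poisson sampling (chi-square test with Benjamini-Hochberg adjustment over 7752 genes), as did 88.2% of the genes tested, so this share does not set them apart. In edgeR's quasi-likelihood test of 1 library against the other 3, none of the 10 was called at an adjusted p under 0.05 in any library. The background of that test was as low, with 0%, 0.0129%, 0.0387% and 0% of the 7752 genes called against the rest for replicates 1 to 4, and with 33, 216, 726 and 683 genes at an unadjusted p under 0.05. DESeq2's Wald test called 0, 1, 0 and 0 genes, none of the 10 among them. In the edgeR test as reported, 1 of the 10, Pgk1 in replicate 3, had an unadjusted p under 0.05 (log2 difference -2.37, edgeR adjusted p = 0.387). DESeq2's Wald test had 1 of the 10 below that level in replicate 3 and 1 in replicate 4. On simulated counts this edgeR test recovered 0% of changes of 4-fold and 79% of changes of 16-fold in 1 library over the rest. In the data, the highest library of each of the 10 genes was 1.38-fold to 9.52-fold above its lowest on the CPM scale. That is a different measure, and the simulation gave all genes the same dispersion, so the folds cannot be compared directly.

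Leaving out 1 library changed the calls of the 10 genes only where it was the library on the same side of the split as the one tested (1 with 4, 2 with 3). The remaining libraries, which set the spread, were then an alike pair. The shares over all genes given beside them include genes with lower counts. These calls were therefore not read as a trait of the 10 genes. Without replicate 4, replicate 1 differed from replicates 2 and 3 in 7 of the 10 genes (edgeR adjusted p from 0.0135 to 0.0422), against 2.3% of all genes tested. Aldoa, Eno1, Ldha, Pgk1 and Pkm were higher in replicate 1, Ldha by 1.49 on the log2 scale, and Gm26762 and Fam57b were lower, Gm26762 with a log2 difference of -0.67. Without replicate 1, replicate 4 differed from replicates 2 and 3 in 9 of the 10 genes (edgeR adjusted p from 0.01 to 0.0384), against 14.9% of all genes tested. Of the 7 glycolysis genes, 6 were higher in replicate 4, Pgk1 by 2.37 on the log2 scale, all 3 partners were lower, and Slc2a1 was not called. Without replicate 3, replicate 2 differed from replicates 1 and 4 in 6 of the 10 (edgeR adjusted p from 0.00851 to 0.0367), against 4.88% of all genes. Eno1, Ldha and Pgk1 were lower there, and all 3 partners were higher. Without replicate 2, replicate 3 differed in 6 of the 10 (edgeR adjusted p from 0.000618 to 0.0473), against 9.21% of all genes. Aldoa, Eno1, Ldha and Pgk1 were lower, Pgk1 with a log2 difference of -2.74, and Gm26762 and Fam57b were higher. In the other 8 tests with 1 library left out none of the 10 was called, with a background of 0% to 0.0488% of genes (0%, 0.0136%, 0.0249%, 0.0273%, 0.0274% in each of 2 tests, 0.0373% and 0.0488%). In each of these tests the single library is assumed to vary like the others.

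Across the 60 genes of glucose metabolism examined by role, the 7 included, 39 had a count in all 4 libraries, or 65.0%, beside 17.5% of all genes and 32.1% of protein-coding genes. Another 10 had no count in any library. The median of the mean TPM over the list was 5.70, beside 0.248 over protein-coding genes. Of the 37 list genes averaging at least 10 counts, all 37 varied beyond Poisson sampling and none was called in any of the 4 library tests, and their median deviations were 0.67, -0.72, -0.88 and 0.95 in replicates 1 to 4.

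In the early steps, the other glucose transporter genes were near or below Slc2a1, with Slc2a3 at 8.40 ± 7.08 TPM and Slc2a8 at 1.07 ± 0.86 TPM (SD, n = 4). Of the hexokinases, which trap glucose in the cell, Hk2 had 10.8 ± 7.91 TPM and Hk1 9.52 ± 5.89 TPM, and Hk3 had no count. Among the phosphofructokinases, which catalyse the committed step, Pfkp led with 90.2 ± 17.7 TPM, against 18.2 ± 5.61 for Pfkm and 7.81 ± 4.62 for Pfkl. Pfkp differed from the 7 genes in its spread, with 106, 68.4, 83.1 and 103 TPM in replicates 1 to 4. It shares 372 bp of exon with Pitrm1 on the other strand. Aldoa had a count in all 4 libraries, while Aldoc, the aldolase gene known from brain, had 18, 1, 0 and 21 counts.

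In the later steps, Tpi1, triose phosphate isomerase, had 108 ± 72.3 TPM and Gapdh 98.9 ± 66.8 TPM. Gapdhs, known as the form of this enzyme made in sperm, had 186 ± 37.5 TPM, with 182, 191, 231 and 139 TPM in replicates 1 to 4. Its values were lowest in replicate 4, where those of Gapdh were highest (145, 49.0, 34.6 and 167 TPM). Both genes have an exon opposite another gene (162 bp for Gapdhs, 68 bp for Gapdh), and their order was not read as one of mRNA levels. Pgam2, the muscle form of phosphoglycerate mutase, likewise had 105 ± 19.2 TPM with its lowest value in replicate 4 (122, 113, 109 and 77.8), while Pgam1, the widely expressed form, had 20.5, 4.97, 1.08 and 26.3. The germ cell forms Pgk2 and Ldhc had no count, and neither did Pklr, the liver and red cell pyruvate kinase. The other enolase genes Eno3 and Eno2, known from muscle and neurons, had 0.89 ± 0.81 and 0.72 ± 1.10 TPM. Ldhb, the other common lactate dehydrogenase subunit, had 4.05 ± 1.83 TPM. Among lactate transport genes, Bsg, the chaperone of the transporters, had 89.2 ± 63.6 TPM, Slc16a3 10.3 ± 5.63 TPM and Slc16a1 9.03 ± 3.85 TPM.

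**Figure D4:**
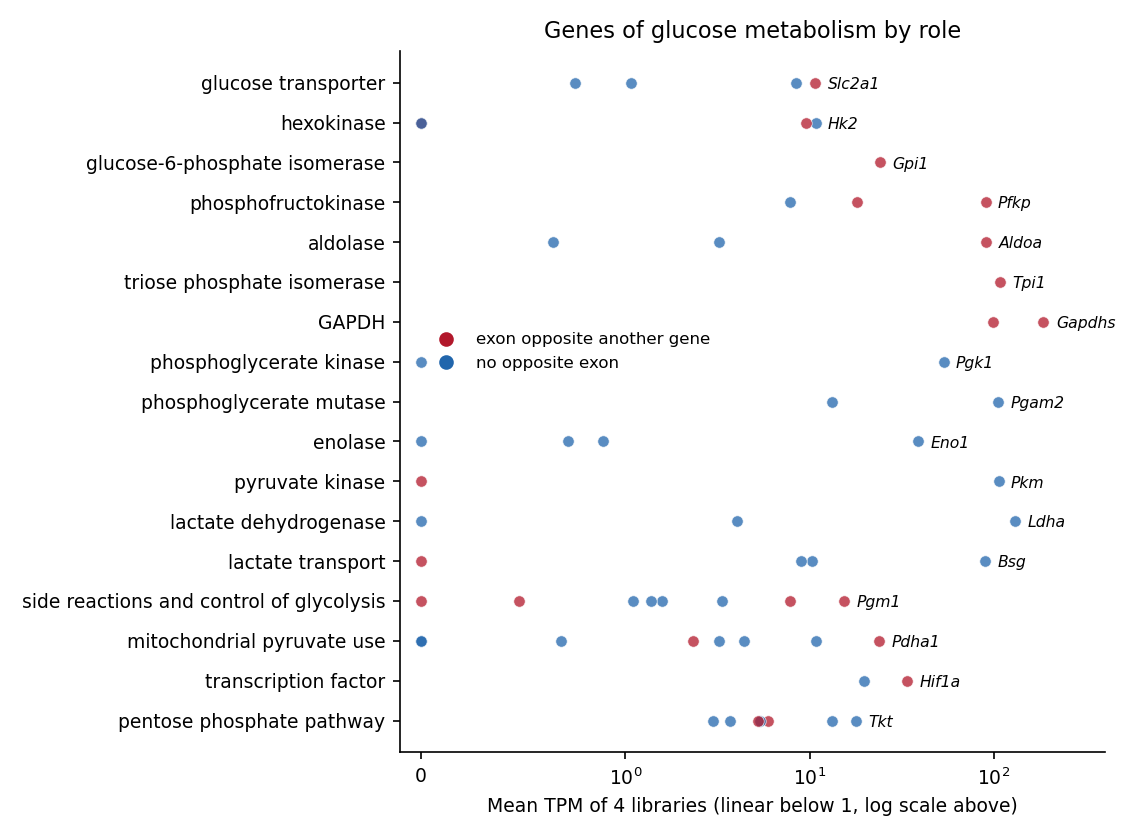
Mean TPM of 4 libraries (linear below 1, log scale above) of the 60 genes of glucose metabolism by role; red points have an exon opposite another gene, blue points have none, and the highest gene of each role is named. By the strand as counted, Ldha at 130 TPM and Gapdhs at 186 TPM are the highest of their roles, and Slc2a1 leads the transporters at 10.8 TPM.

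Of the branches and controls, the pentose phosphate genes Tkt and Taldo1 had 17.9 ± 11.7 and 13.2 ± 12.1 TPM, and all 7 genes of that branch had a count in all 4 libraries. G6pdx, the first enzyme of the branch, had 5.99 ± 5.26 TPM. Pdha1 and Pdhb, subunits of pyruvate dehydrogenase, had 23.8 ± 10.6 and 10.9 ± 10.9 TPM, and their inhibitor Pdk1 had 4.39 ± 2.59 TPM, while Pdk2 and Pdk4 had no count. Pgm1, which links glucose to glycogen, had 15.4 ± 9.45 TPM, Pfkfb2, which makes an activator of phosphofructokinase, 7.79 ± 1.27 TPM and Pgm2 3.34 ± 2.87 TPM. Hif1a had 33.7 ± 26.6 TPM (41.0, 14.0, 11.5 and 68.2) and Myc 19.7 ± 12.04 TPM (29.2, 12.8, 6.21 and 30.4), both higher in replicates 1 and 4. That split was present over the whole table, and a link of either gene to the 7 was not tested.

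A further 14 list genes share at least 100 bp of exon with a gene on the other strand, and 12 of these pairs had at least 20 counts. The partner was denser in all 4 libraries in 8 of the 12, among them 3 of 5 noncoding partners (beside the 78.4% above) and 5 of 7 coding ones. The 81.3% above counts either gene of a coding pair as the denser one, so it is no background for these 5 of 7. Gm15283 had 4873, 6750, 5159 and 4294 counts, whereas Hif1a had 283, 109, 68 and 326, a log2 difference in density of 7.02 ± 1.27 (SD, n = 4). The gene was denser than its partner in all 4 libraries in 3 pairs, which were Pitrm1 over Pfkp (-4.43 ± 1.30), Tmem147os over Gapdhs (-7.21 ± 0.77) and Yod1 over Pfkfb2 (-3.23 ± 0.85). Hk1os over Hk1 had no fixed order, with Hk1os at 0 counts in all but replicate 2. These differences carry the same smallest exact permutation p of 0.13 where they held in 4 of 4 libraries.

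**Figure D5:**
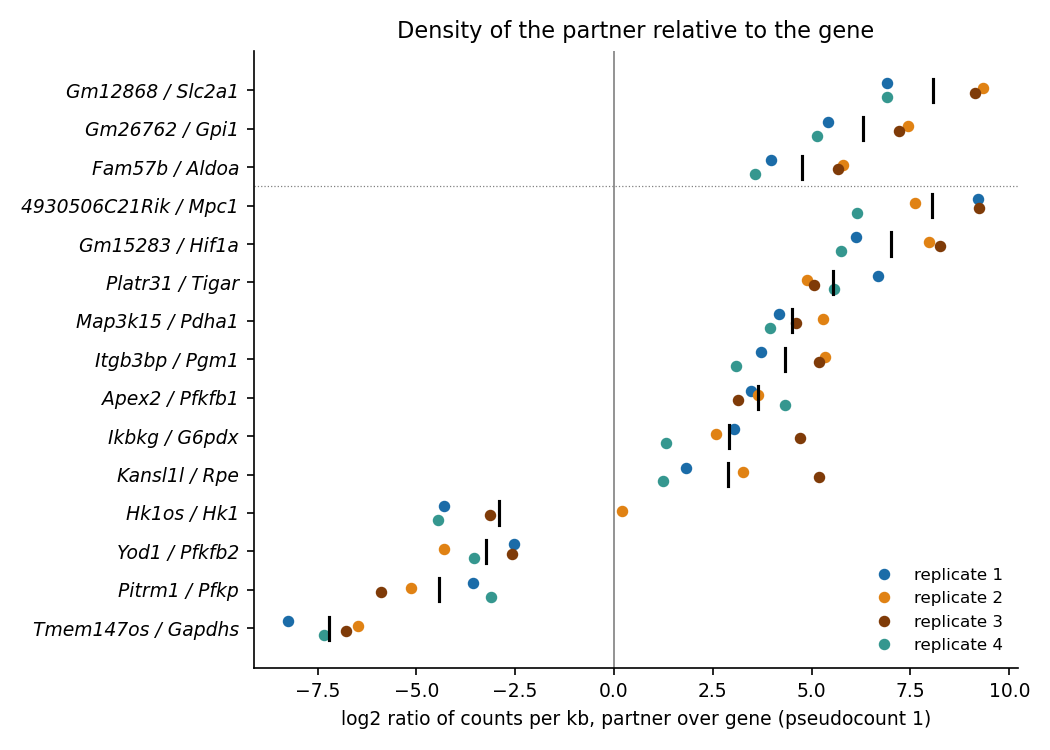
Log2 ratio of counts per kb, partner over gene (pseudocount 1), in each of 4 libraries for the 3 pairs described (above the dotted line) and 12 other pairs of the list; the bar is the mean. The 3 pairs have means of 8.07, 6.30 and 4.75 with replicates 2 and 3 to the right, and 3 pairs lie left of 0 in every library.

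The genes whose profile over the 4 libraries was most like that of Ldha, by the root mean square distance of log2 CPM deviations among 3091 genes averaging at least 50 counts, were Psma7 (0.0427), Hdlbp (0.0499) and Rps3 (0.0523), none of which has an opposite exon. Among the 7 genes, Eno1 (0.0892) and Slc2a1 (0.0979) were nearest to Ldha and Pgk1 (0.492) farthest, while the partners were at 1.15 to 1.17. Slc2a1 averaged 38.5 counts, below the limit of 50, and was included only as 1 of the 7. For Gm26762 the nearest genes were Smarcd3 (0.0078), B430212C06Rik (0.0108) and Gm21844 (0.0174), and each of these has an exon opposite another gene (Chpf2, Cidea and Rbm14). Its distances to Fam57b (0.0693) and Gm12868 (0.0985) were small, and those to the 7 genes were 0.885 to 1.56. With 4 libraries these distances are descriptions.

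The promoters of the 10 genes were searched on both strands for ACGTG, a form of the core of the element bound by HIF-1. It is called the core below, and other forms were not searched. They were also searched for CACGTG, an element bound by Myc that contains this core on both strands. The split of the 7 genes between libraries was present over the whole table, and a link to these elements was not tested. Promoters are 300 bases from RefSeq (GRCm38.p6), 250 before and 50 after the start. Of the 10 genes, 8 matched an entry, with 16 promoters between them, and 6 of these promoters, from 5 genes (Slc2a1, Aldoa, Ldha, Pgk1 and Pkm), held the core. The 2 Aldoa promoters among the 6 overlap and hold the same match. In the whole table of 32851 promoters 19.6% held the core and 7.15% held CACGTG. These shares are per promoter, so they stand beside the 6 of 16 promoters and not beside the 5 genes. Several of the genes have more than 1 promoter, and a share per gene is not given. Among the 16, only a promoter of Ldha held CACGTG. Gpi1, Eno1 and Fam57b held no match of ACGTG in these windows, which does not show that they lack the element in another form. A promoter of Ldha had 5 matches of the core counted on both strands, 4 of them in 2 copies of CACGTG, and the promoter of Pgk1 and 1 of Pkm had 2 each. Those of Ldha and Pgk1 are shown, with matches in capitals.
Ldha, chr7:46845554-46845853, + strand: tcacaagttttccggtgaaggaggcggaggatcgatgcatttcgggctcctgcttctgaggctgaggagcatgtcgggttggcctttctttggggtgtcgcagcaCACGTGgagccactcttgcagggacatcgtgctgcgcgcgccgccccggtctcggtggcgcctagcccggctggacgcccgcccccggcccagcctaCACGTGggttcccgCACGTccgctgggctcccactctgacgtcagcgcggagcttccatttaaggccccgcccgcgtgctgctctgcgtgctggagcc
Pgk1, chrX:106186850-106187149, + strand: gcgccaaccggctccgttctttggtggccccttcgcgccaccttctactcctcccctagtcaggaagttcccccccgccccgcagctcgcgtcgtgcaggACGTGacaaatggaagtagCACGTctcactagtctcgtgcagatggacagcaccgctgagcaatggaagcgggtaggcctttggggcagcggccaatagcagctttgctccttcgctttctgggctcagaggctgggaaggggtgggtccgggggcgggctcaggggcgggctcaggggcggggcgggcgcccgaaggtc
A match is a description of the letters in the window. Beside these matches, the highest library was 9.52-fold above the lowest for Pgk1 and 4.17-fold for Ldha on the CPM scale, and 2.88-fold for Pkm, which has 2 matches in 1 of its promoters. Slc2a1 and Aldoa, with 1 match in a window, had 4.13-fold and 3.06-fold. Gpi1 and Eno1, with no match, had 3.56-fold and 3.73-fold. A link between matches and spread was not tested.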

How the data were processed

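Fragment counts per gene in 4 Th2 libraries were used as the authors deposited them, as raw numbers. Per the file headers, the program was featureCounts v1.4.6-p4, run on coordinate-sorted STAR alignments to mm10 with GENCODE M13, counting paired fragments with both ends mapped over exons, with strand option 1. No STAR version was found in the sources used here. The assay is labelled total RNA-seq although the linked library protocol is named for poly(A) RNA. Symbols came from GENCODE M21 by identifier (50376 of 50600 matched). Groups and replicate numbers came from the labels.

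CPM and TPM were computed from the counts. Exons on opposite strands were intersected with bedtools 2.31.1, and any shared bp made an opposite exon. Density differences used a pseudocount of 1 and were tested over libraries by exact sign-flip permutation, two-sided, and pair shares with a chi-square test. Over genes averaging at least 10 counts, edgeR 4.0.16 (quasi-likelihood, TMM) compared 1 library with the other 3, and a chi-square test set counts against Poisson sampling, both with Benjamini-Hochberg adjustment at 0.05, in R 4.3.3 with DESeq2 1.42.0 as an alternative and scipy 1.17.1 under Python 3.11.15. The tests were checked on simulated counts of 7752 genes with 200 changed. P-values of the edgeR, DESeq2 and sign-flip tests rest on the spread between these libraries, which may in part be technical. Those of the chi-square tests are set against counting error only.

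The members, the 60-gene list and the markers were chosen with earlier results of these data known. Named genes were the 10 members, the 3 of highest mean TPM in each role, those called, the opposite-strand genes of these and the genes of most similar profile. Others were named after their values were seen, such as Pklr, Pgk2, Ldhc, Pdk2 and Pdk4. Some items of the list and some sequences are not reported here.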

Additional observations from a re-analysis of the deposited data

How the results depend on the processing

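The 3 density differences (log2) kept their sign with a pseudocount of 0.5, with none, without division by length and without each library. They ranged from 5.92 to 6.69 for Gm26762 over Gpi1, from 4.40 to 5.14 for Fam57b over Aldoa and from 7.65 to 8.46 for Gm12868 over Slc2a1, except for 5.00 without division by length. With 3 libraries the smallest exact sign-flip p is 0.25. Of 128 alternatives in all, 104 left the value within the spread or 1.5-fold of the count, 24 moved it and none reversed it. Of the 24, 10 were the member means on the scale of genes without an opposite exon, which holds fewer counts and so enlarges every TPM. Without a filter on low counts, 11679 genes rather than 6838 varied beyond Poisson sampling, since more genes were tested. In the edgeR tests of 1 library against the rest, replicate 2 had 3 calls with DESeq2 size factors and 3 without the filter (1 as reported), and replicate 4 had 3 and 3 (0 as reported). DESeq2's Wald test gave replicate 3 no call (0, against 3 by edgeR, with 724 at an unadjusted p under 0.05 in DESeq2). The cause of these was not tested. Leaving out 1 library in turn gave 0 to 169 calls in replicate 1, 1 to 400 in replicate 2, 2 to 741 in replicate 3 and 3 to 1083 in replicate 4, the highest of each without replicate 4, 3, 2 and 1 in that order. No paired analysis was possible because all libraries belong to 1 group. Depth limits Slc2a1 most, with 14 counts in replicate 3.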
